A study of Mus musculus with 60 samples.

Results

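The cortical response to chronic fluoxetine is described for 11 inbred mouse strains: NZW/LacJ, PL/J, RIIIS/J, SM/J, NZB/BlNJ, AKR/J, CE/J, BUB/BnJ, MA/MyJ, MRL/MpJ and LG/J. They contributed 22 of the 60 Affymetrix expression arrays of a series on 30 strains. These 11 are what remains of the 14 strains outside 4 ancestry groups (relatives of 129S1/SvImJ, Bagg albino, C57/C58 and Swiss) after P/J, DBA/2J and I/LnJ, which had the largest responses of the 14, were set aside. Each strain gave 1 array of mice that drank plain water (0 mg/kg) and 1 array of mice that drank fluoxetine at a planned 18 mg/kg per day for 21 days. All mice were inbred males aged 10 to 11 weeks at collection, and each array carried cortex RNA pooled from 3 mice. A difference within a strain therefore compares 1 pool with 1 pool and has no replicate of its own. Since the fluoxetine difference itself chose these strains, it is described here without a test. Tests are given for the 14 strains defined by label alone, for the 16 strains of the ancestry groups, for the contrast between these sets, and for expression levels of the strains.

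Fluoxetine blocks the serotonin transporter, which sits on the axons of serotonin neurons whose cell bodies lie in the brainstem, so the cortex is a target region and not the site of transporter synthesis. Sustained exposure is known to bring slow adaptations in receptors, growth factor signalling and neuronal plasticity. Fluoxetine is also a cationic amphiphilic compound, a chemical type that accumulates in membranes and lysosomes and can affect cellular sterol handling.

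All values are deposited intensities on the log2 scale, where a difference of 1 is 2-fold, and differences are fluoxetine minus water. Of 18193 genes, the 11886 that reached log2 4 on at least 6 of the 60 arrays were examined. Response size was the SD over these genes of the within-strain difference. It ran from 0.173 in PL/J to 0.271 in BUB/BnJ, with a median of 0.203 over the 11 strains. The nearest of the strains set aside was I/LnJ at 0.306, followed by DBA/2J at 0.348 and P/J at 0.452. In the 16 ancestry-group strains the size ran from 0.172 (NOR/LtJ) to 0.342 (C58/J), with a median of 0.204. Of these 16, 2 lay above the highest of the 11 strains and 8 lay below their median. By this SD the 11 strains were thus weak responders beside P/J, DBA/2J and I/LnJ, and their range lay within that of the ancestry-group strains. The median absolute difference over genes gave another order: BUB/BnJ (0.145) lay above I/LnJ (0.117) and just below DBA/2J (0.149). On that scale the 11 strains ran from 0.0712 (AKR/J) to 0.145, and the 16 from 0.073 (A/J) to 0.132 (C57BR/cdJ). Over the 14 label-defined strains, mean response size was 0.243 ± 0.0791 (SD, n = 14), against 0.214 ± 0.0458 (SD, n = 16). The difference of 0.0289 was not past the threshold (permutation test, 100000 resamples, two-sided, p = 0.234).

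**Figure D1:**
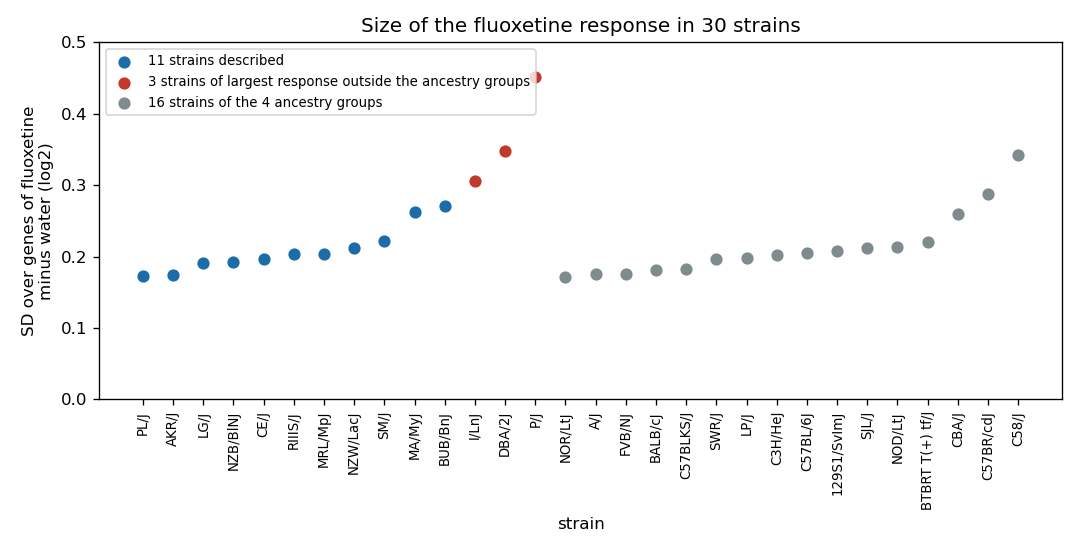
Each point is 1 of the 30 strains, with the SD over 11886 genes of fluoxetine minus water (log2) on the vertical axis. The 11 strains (blue) span 0.173 to 0.271, the 3 strains set aside (red) begin at 0.306, and the 16 ancestry-group strains (grey) reach 0.342.

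The arrays carried cortical signal. Slc17a7, the vesicular glutamate transporter of cortical projection neurons, lay between 11.87 and 13.18 on the 22 arrays, and Tbr1, a transcription factor of cortical excitatory neurons, between 10.71 and 12.34. Arrays of both treatments matched their own strain best in 11 of 11 strains in each direction. The 3' minus 5' signal of Actb, a measure of RNA integrity, differed between treatments by -0.209 (SM/J) to 0.341 (RIIIS/J). The median over all genes tested moved by -0.0173 (NZW/LacJ) to 0.0251 (MA/MyJ). Where such values move with a result below, their part in it was not tested. Of 11886 genes, the mean difference over the 11 strains was above 0 for 5250 genes (44.2%) and below 0 for 6636 (55.8%), with a median of -0.0060. Counts for gene lists are to be read against that split.

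Few genes differed the same way across strains. At least 10 of the 11 strains had a higher value with fluoxetine for 29 genes (0.244% of those examined) and a lower value for 79 genes (0.665%), which makes 108 in all (0.909%). After each array was centred on its median, 53 genes were higher and 69 lower. All 11 strains were higher for 2 genes (0.0168%) and lower for 4 (0.0337%). Some genes reach such counts of strains by random sign alone, and their number was not worked out. The counts are therefore no evidence of a shared response. Rasl11b, a small RAS-like GTPase gene, was lower in 11 of 11 strains, by -0.15 ± 0.09 (SD, n = 11). On water it ran from 11.39 to 12.20 with a median of 11.71, and with fluoxetine from 11.35 to 11.91 with a median of 11.57. The ranges overlapped, since strains differed more in level than either array differed from its pair, and the difference itself ran from -0.30 in AKR/J to -0.03 in RIIIS/J.

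Among genes with 1 sign in at least 10 of 11 strains and levels of at least 6 on all 22 arrays, the largest lower mean was that of Gpc4, a cell-surface heparan sulfate proteoglycan that organizes synapses. Its difference was -0.27 ± 0.24, lower in 10 of 11 strains. BUB/BnJ (-0.56), LG/J (-0.53), MRL/MpJ (-0.53) and RIIIS/J (-0.52) were lowest, and NZB/BlNJ was slightly higher (0.08). A second, dimmer probe set of Gpc4 did not share the pattern, with a mean of 0.02. Grp, the gastrin-releasing peptide, was lower in 10 of 11 strains (-0.23 ± 0.30), with MA/MyJ at -0.74 and NZB/BlNJ at 0.45. Lmo1, a LIM-domain transcriptional cofactor, was likewise lower in 10 of 11 (-0.24 ± 0.34), and NZW/LacJ was the exception at 0.39. The other genes of this kind were Sqle (-0.19), Cln6 (-0.18), Pold4 (-0.16), Zfp651 (-0.15), Rxra (-0.14) and Pms2 (-0.14). A second Zfp651 probe set of similar level differed by 0.03 and was higher in 8 strains. Sqle encodes squalene epoxidase of cholesterol synthesis, Rxra a nuclear receptor that pairs with other nuclear receptors, and Pms2 a DNA mismatch repair protein.

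On the higher side, Pnmal1 had the largest mean among genes that met the same limits, 0.30 ± 0.29 (SD, n = 11), and was higher in 10 of 11 strains. Its water values had a median of 7.04 (6.66 to 7.81) and its fluoxetine values a median of 7.40 (7.02 to 7.77). MRL/MpJ (0.75), LG/J (0.74) and PL/J (0.68) carried most of this mean, and BUB/BnJ was at -0.05. A second Pnmal1 probe set of similar level (6.88 against 7.28) did not share the difference, with a mean of -0.0033, 6 strains higher and 5 lower. Mrpl50, a subunit of the mitochondrial ribosome, was 0.24 ± 0.23 higher, with 0.71 in NZB/BlNJ. Its other probe set, as bright on these arrays (9.11 against 9.05), differed by 0.02. Polr1b, a core subunit of RNA polymerase I, was 0.20 ± 0.20 higher, with 0.64 in PL/J. Sema3a, a secreted axon guidance cue, was 0.17 ± 0.20 higher and had its largest value, 0.68, in MA/MyJ. Pdia4, a disulfide isomerase of the endoplasmic reticulum, was 0.16 ± 0.20 higher. Spred1, an inhibitor of the RAS pathway (0.16), Ppig (0.13), Usp45 (0.12), Gdpd5 (0.11) and Nkain2 (0.11) completed the set. Other probe sets differed by -0.0055 and 0.05 for Ppig and by 0.02 for Nkain2.

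None of these 20 genes passed the threshold in strains that the choice did not use. In the 16 ancestry-group strains the limma adjusted p ran from 0.456 (Rasl11b, -0.09) to 0.999 (Pnmal1, 0.0008). Pold4 (0.12), Cln6 (0.08), Rxra (0.07) and Zfp651 (0.03) had the opposite sign there, as did Ppig (-0.10), Usp45 (-0.03), Mrpl50 (-0.02), Nkain2 (-0.01) and Polr1b (-0.0043). The mean differences of all genes in the 11 and the 16 strains correlated at 0.175 across 11886 genes, which are not independent replicates. The corresponding value for the 16 strains and the 3 set aside was 0.605, and that for the 11 and the 3 was 0.178.

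Strains of the 11 did not share one profile. Over the 55 pairs of strains, the correlation across genes of their differences had a median of 0.0194, and 30 pairs were positive. It was lowest between NZW/LacJ and BUB/BnJ (-0.342) and highest between BUB/BnJ and MRL/MpJ (0.293). Pairs of the 16 strains had a median of 0.0234, while the 3 pairs among P/J, DBA/2J and I/LnJ lay between 0.371 and 0.497.

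**Figure D2:**
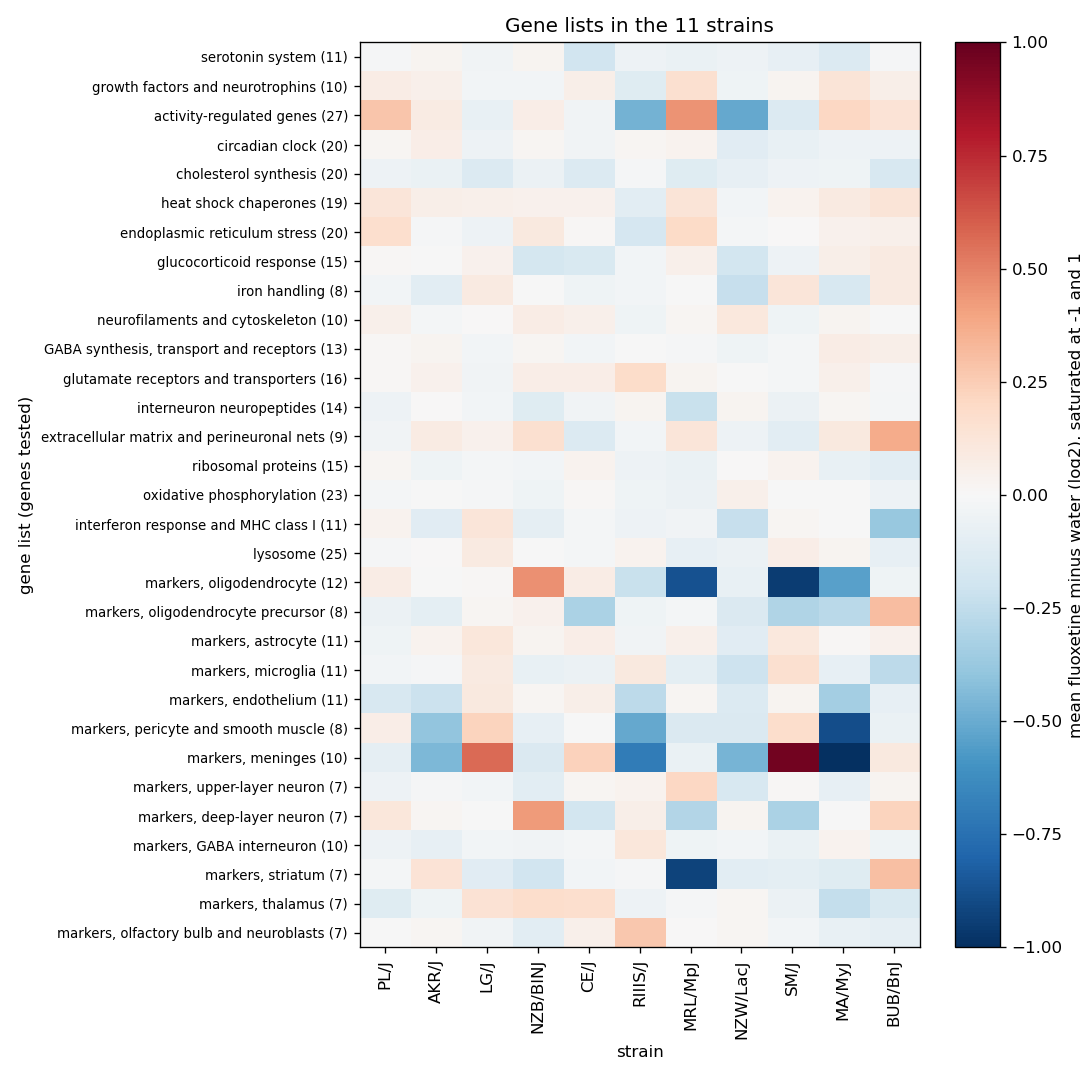
Colour gives the mean fluoxetine minus water (log2) of each gene list with at least 5 genes tested, for each of the 11 strains ordered by response size, with lists in rows and the number of genes tested in brackets. Activity, oligodendrocyte, vessel and meningeal lists change sign between strains (meninges from -1.31 in MA/MyJ to 0.96 in SM/J), while cholesterol synthesis is at or below -0.0083 in every strain.

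Cholesterol synthesis was the list with the most even direction. Brain cells make their own cholesterol from acetyl-CoA through the mevalonate pathway, and the genes are known to be controlled together by the transcription factor SREBP2, encoded by Srebf2. It binds sterol regulatory elements in their promoters, often beside CCAAT boxes bound by NF-Y. Sterol regulatory elements vary in sequence, and the form searched here was TCACNCCAC on either strand. The 250 bases before the gene start were taken from RefSeq (build GRCm38.p6) for the 16 of 20 measured members in the promoter table; Sqle, Fdps, Fdft1 and Stard4 were not matched. Of the 16, only Hmgcs1 had that form, against 1.22% of 27025 genes. The E-box CACGTG was in 4 of the 16, against 6.86% of genes. CCAAT, or its complement ATTGG, was in 16 of the 16, against 37.5% of genes. The 16 include Mvk, with a mean difference above 0 (0.05), and Dhcr7, near 0 (-0.0004). Dhcr7 and Pmvk also had promoters of other gene starts without CCAAT. Of these searches, TCACNCCAC and CCAAT were added after the values had been seen, and base composition was not matched. The promoters of Hmgcs1, of Nsdhl (lower in 10 of 11 strains) and of Idi1 (lower in 8) are shown because they hold an early, a late and a middle step of the pathway. They lie at chr13:119690101-119690350, chrX:72918271-72918520 and chr13:8885356-8885605, all on the plus strand. Capitals mark TCACNCCAC, 137 bases before the start of Hmgcs1, and each CCAAT or ATTGG.
Hmgcs1: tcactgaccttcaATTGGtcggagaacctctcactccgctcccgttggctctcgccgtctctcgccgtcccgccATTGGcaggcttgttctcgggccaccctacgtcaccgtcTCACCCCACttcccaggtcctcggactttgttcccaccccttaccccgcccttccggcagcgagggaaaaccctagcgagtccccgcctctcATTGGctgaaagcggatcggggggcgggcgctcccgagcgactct
Nsdhl: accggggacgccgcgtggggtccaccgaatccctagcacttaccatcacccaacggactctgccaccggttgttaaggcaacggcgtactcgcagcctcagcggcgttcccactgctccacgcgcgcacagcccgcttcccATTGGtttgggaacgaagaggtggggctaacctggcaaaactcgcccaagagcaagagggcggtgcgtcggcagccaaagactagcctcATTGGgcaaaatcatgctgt
Idi1: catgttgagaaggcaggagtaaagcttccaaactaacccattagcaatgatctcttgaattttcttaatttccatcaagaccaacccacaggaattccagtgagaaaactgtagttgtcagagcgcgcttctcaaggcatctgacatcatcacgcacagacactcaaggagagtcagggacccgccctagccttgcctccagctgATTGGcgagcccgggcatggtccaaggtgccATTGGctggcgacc

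Of 24 listed genes of the pathway, 20 had a probe set of their own and all 20 passed the filter. Their mean difference was below 0 for 19, with a median of -0.09, against 55.8% of all genes. Without BUB/BnJ or MRL/MpJ 17 of 20 were below 0, and after centring 18 were. The list mean was below 0 in 11 of 11 strains, from -0.16 in BUB/BnJ to -0.0083 in RIIIS/J. With all probe sets of a gene averaged, it was below 0 in 10 of 11. In LG/J 18 of 20 members were lower, in CE/J 17, in MRL/MpJ 16 and in MA/MyJ 12. The shift was small: no member's mean reached -0.20.

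Hmgcs1, an early synthase of the pathway, ran from 13.35 to 13.68 on water (median 13.47) and from 13.09 to 13.57 with fluoxetine (median 13.42). Its difference was -0.10 ± 0.10 (SD, n = 11), from -0.33 in CE/J to nearly 0 in BUB/BnJ. The groups overlapped. The probe set used was lower in 11 of 11 strains. The other 4 probe sets of the gene also had means below 0 and were lower in 8 to 10 strains. Sqle, the squalene epoxidase, ran from 10.06 to 10.31 on water (median 10.18) and from 9.86 to 10.25 with fluoxetine (median 9.99). MRL/MpJ (-0.36), BUB/BnJ (-0.35), AKR/J (-0.34) and CE/J (-0.30) were lowest, and MA/MyJ was the single strain higher (0.06). Its mean was -0.19 ± 0.14.

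Fdps, which makes farnesyl diphosphate, was lower in 9 of 11 strains (-0.17 ± 0.21), with BUB/BnJ at -0.59 and NZW/LacJ at 0.16. Fdft1, the squalene synthase, was lower in 9 (-0.13 ± 0.09), and Insig1, the sterol-sensing retention factor of SREBP, in 9 (-0.13 ± 0.17). Nsdhl, a late sterol dehydrogenase, was lower in 10 (-0.12 ± 0.10), and Mvd, the mevalonate diphosphate decarboxylase, in 10 (-0.11 ± 0.12). Cyp51, the lanosterol demethylase, was lower in 9 (-0.09 ± 0.06; a dimmer probe set differed by 0.01), as were Msmo1 (-0.09) and Lss (-0.10). Mvk, the mevalonate kinase, was the member with a mean above 0 (0.05 ± 0.32), while its dimmer probe set differed by -0.11.

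In the 16 ancestry-group strains 17 of 20 members had a mean below 0, with a median of -0.07, where 52.1% of all genes were below 0. No member passed the threshold there: the limma adjusted p was 0.414 for Fdps, 0.439 for Insig1, 0.527 for Hmgcs1 and 0.735 for Sqle. In the 3 strains set aside, 15 of 20 had a mean above 0, with list means of 0.28 in P/J, 0.16 in DBA/2J and -0.17 in I/LnJ. No test of that contrast is given, since the response chose the sets.

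**Figure D3:**
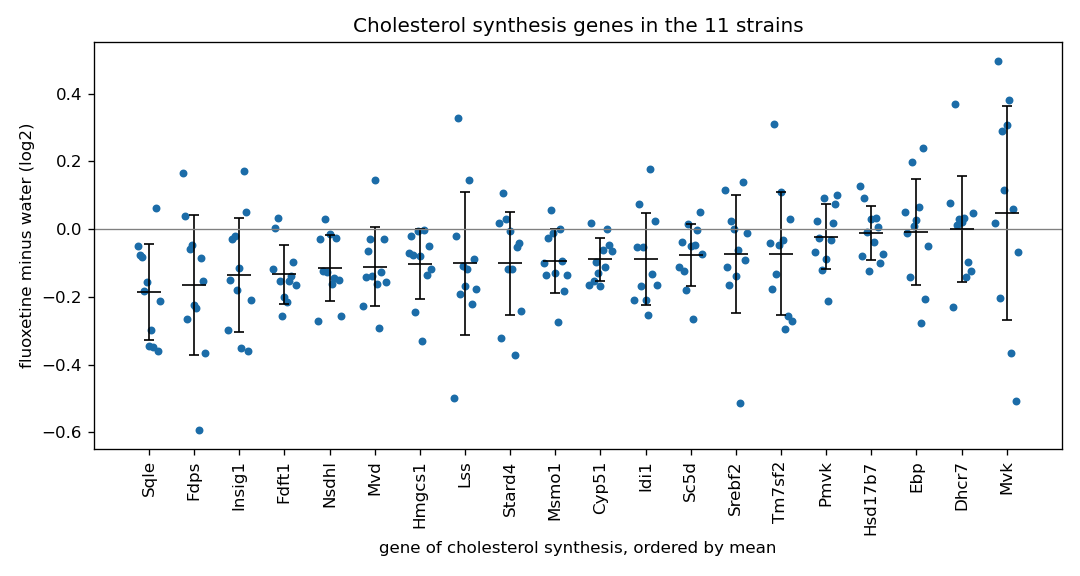
Points give fluoxetine minus water (log2, vertical axis) in each of the 11 strains for 20 cholesterol synthesis genes ordered by mean; black marks give the mean and SD over strains. Of the 20 means, 19 lie below 0, from -0.19 for Sqle, and that of Mvk lies at 0.05.

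The serotonin list held the direct context of the drug. Slc6a4, the transporter it blocks, and Tph2, the enzyme of neuronal serotonin synthesis, reached no more than 2.08 and 2.12 on any of the 22 arrays, where the floor is 2.07. Of 18 listed genes 11 passed the filter, 3 with a mean above 0 and 8 below, and a median of -0.04. Htr1a, the inhibitory receptor that acts as autoreceptor in the raphe and as postsynaptic receptor in cortex, ran from 7.44 to 8.57 on water and from 7.21 to 8.43 with fluoxetine. It was lower in 9 of 11 strains (-0.08 ± 0.26), with RIIIS/J at -0.59 and MA/MyJ at 0.48. The 3 strains set aside had a mean of -0.87 for it. Over the 14 label-defined strains the difference was -0.25 (limma adjusted p = 0.609).

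Htr2c, a receptor coupled to calcium release, differed by -0.09 ± 0.17 and Htr1b, a terminal receptor, by -0.04 ± 0.24. Maoa, which degrades serotonin, differed by -0.03 ± 0.11 and S100a10, a partner of serotonin receptors also called p11, by 0.03 ± 0.22. For each of these the mean was smaller than the spread over strains. Ddc, the decarboxylase of serotonin and dopamine synthesis, had the lowest mean of the list (-0.23 ± 0.42), with MRL/MpJ at -1.10. Htr3a (-0.15 ± 0.30) lay between 2.77 and 4.73, near the filter, where values are compressed.

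Activity-regulated genes differed in opposite directions in different strains. These are immediate early genes, which neurons switch on within minutes of firing, and their later targets. Of 27 genes 13 had a mean above 0 and 14 below, with a median of -0.0041. In NZW/LacJ 24 of 27 were lower (list mean -0.51) and in RIIIS/J 25 were lower (-0.47). In MRL/MpJ 24 were higher (0.45) and in PL/J 24 were higher (0.28). The list mean on water was 10.08 in NZW/LacJ and 9.36 in MRL/MpJ, and with fluoxetine 9.57 and 9.81.

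Fos, a subunit of the AP-1 transcription factor, went from 11.42 on water to 9.79 with fluoxetine in NZW/LacJ, and from 10.33 to 9.00 in RIIIS/J. In MRL/MpJ it went from 8.91 to 10.10. The other 8 strains differed by -0.60 to 0.65. Egr2, a zinc finger factor, differed by at least 2-fold in 5 strains: 1.90 in MRL/MpJ, 1.15 in PL/J, 1.12 in BUB/BnJ, -1.04 in LG/J and -1.69 in RIIIS/J. Its second probe set gave 2.03 in MRL/MpJ and -1.79 in RIIIS/J. Arc, which regulates AMPA receptor uptake at synapses, differed by -1.61 in RIIIS/J, -1.07 in NZW/LacJ and 1.10 in MRL/MpJ. Npas4, a factor that responds to calcium entry, was lowest in NZW/LacJ (8.99 to 7.15).

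Nptx2, a secreted pentraxin that clusters AMPA receptors, was higher in 8 of 11 strains (0.27 ± 0.46), with 1.44 in MA/MyJ. Inhba, a subunit of activin, was higher in 8 (0.17 ± 0.28), with 0.68 in MA/MyJ. Bdnf, a growth factor of neuronal plasticity, was higher in 5 and lower in 6 (0.12 ± 0.39), from -0.38 in RIIIS/J to 0.82 in MA/MyJ. Its mean in the 3 strains set aside was 1.77. Ntrk2, its receptor, differed by -0.01 ± 0.08. Vgf, a neuropeptide precursor, was higher in 8 (0.06 ± 0.21). Of 10 growth factor and receptor genes 6 had a mean above 0 (median 0.04; 0.03 without BUB/BnJ and 0.02 without MA/MyJ).

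Oligodendrocytes wrap axons in myelin. All 12 tested myelin and oligodendrocyte genes had a mean below 0 in the 11 strains, with a median of -0.21. That median was -0.11 without SM/J, -0.12 without MRL/MpJ and -0.27 without NZB/BlNJ. The list mean was -0.95 in SM/J, -0.87 in MRL/MpJ and -0.55 in MA/MyJ, with 12 of 12 genes lower in each. In RIIIS/J 12 of 12 were also lower, with a smaller list mean (-0.23). It was 0.46 in NZB/BlNJ with 12 of 12 higher, and between -0.08 (NZW/LacJ) and 0.07 (CE/J) in the remaining strains. Mog, a protein of the outer myelin surface, went from 8.82 to 7.47 in SM/J and from 8.93 to 7.60 in MRL/MpJ, and from 8.88 to 9.48 in NZB/BlNJ. Mal, a myelin raft protein, had a mean of -0.30 ± 0.47, and Mbp, a main protein of compact myelin, -0.08 ± 0.26. Dimmer Mbp probe sets at levels of 10.34 and 7.41 differed by 0.06 and 0.03, and the remaining Mbp probe sets had means below 0. In bulk tissue, fewer oligodendrocytes and less RNA per cell cannot be told apart. The 16 ancestry-group strains also had 12 of 12 means below 0, with a median of -0.15; Mal had a limma adjusted p of 0.458 there.

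Precursors of oligodendrocytes followed in part. Of 8 genes 7 had a mean below 0 (median -0.09), and Pdgfra, the growth factor receptor that defines these cells, was lower in 9 of 11 strains (-0.11 ± 0.16). Olig1 differed by -0.08 ± 0.15. Deep-layer neuron genes had the same sign as myelin genes in SM/J (-0.32), MRL/MpJ (-0.29) and NZB/BlNJ (0.42), while MA/MyJ was near 0 (-0.0059). In PL/J both lists were above 0 (0.11, and 0.07 for myelin genes). The signs were opposite in RIIIS/J (0.06, against -0.23 for myelin genes), CE/J (-0.18 against 0.07) and BUB/BnJ (0.22 against -0.05). They were also opposite in NZW/LacJ (0.03 against -0.08), AKR/J (0.02 against -0.0022) and LG/J (-0.0075 against 0.01). Deep-layer markers were lower for 7 of 7 genes in SM/J and higher for 7 of 7 in NZB/BlNJ. The part of deep-layer content in the myelin values was not tested.

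Meningeal and vessel genes separated a few arrays from their pairs. All 10 genes of the meninges, the membranes over the cortex, were lower in MA/MyJ (list mean -1.31), in RIIIS/J (-0.70) and in NZW/LacJ (-0.47). All 10 were higher in SM/J (0.96), LG/J (0.57) and CE/J (0.23). Over the 11 strains 8 of 10 means were below 0, with a median of -0.12, which was -0.0070 without MA/MyJ, -0.05 without RIIIS/J and -0.25 without SM/J. Over the 11 strains the list ran from 7.30 (SM/J) to 8.76 (MA/MyJ) on water and from 7.45 (MA/MyJ) to 9.26 (LG/J) with fluoxetine. Col3a1, a fibrillar collagen, went from 6.46 to 8.05 in SM/J, from 8.26 to 6.68 in MA/MyJ and from 7.88 to 6.29 in RIIIS/J. Igf2, a growth factor of the meninges and choroid plexus, went from 10.63 to 8.59 in MA/MyJ. Ogn and Slc13a4 also had their lowest differences in MA/MyJ (-2.66 and -1.87) and their highest in SM/J (1.20 and 1.36).

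Genes of pericytes and smooth muscle were lower in MA/MyJ (-0.89; Tagln -2.11, Myh11 -1.66) and RIIIS/J (-0.51; Myh11 -1.68), and AKR/J had -0.39. Endothelial genes had 11 of 11 means below 0 with a median of -0.07. Their list mean was -0.34 in MA/MyJ, with 11 of 11 lower, and -0.26 in RIIIS/J. It was above 0 in 5 of 11 strains, up to 0.10 in LG/J with 8 of 11 genes higher. Vwf, a clotting factor made by endothelium, had the lowest mean, -0.25 ± 0.44. In the 16 ancestry-group strains 7 of 11 endothelial means were below 0.

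Ttr, the thyroid hormone carrier made in the choroid plexus, had the widest spread of differences among the genes named here (SD 1.98). It went from 5.19 to 8.98 in RIIIS/J (3.79), from 5.99 to 8.20 in BUB/BnJ (2.21) and from 10.00 to 6.40 in MA/MyJ (-3.60). Its direction was opposite to that of the meningeal genes in RIIIS/J and the same in MA/MyJ. Only 2 of 10 choroid plexus markers passed the filter, and Otx2, Aqp1, Cldn2 and Slc4a5 were at the floor on all 22 arrays. Kcnj13, the other marker that passed, was lower in both RIIIS/J (-1.25) and MA/MyJ (-2.16).

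Striatal genes marked a single strain. Their list mean was -0.92 in MRL/MpJ, from 9.82 on water to 8.90 with fluoxetine, while the other water arrays lay between 8.30 and 8.78. In that strain Penk, the enkephalin precursor of striatal neurons, went from 11.08 to 9.80, and Drd1, a dopamine receptor, from 9.07 to 7.98. Hence the MRL/MpJ differences in striatal, myelin and activity genes came from the same pair of arrays, and the part of each in the others was not tested.

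**Figure D4:**
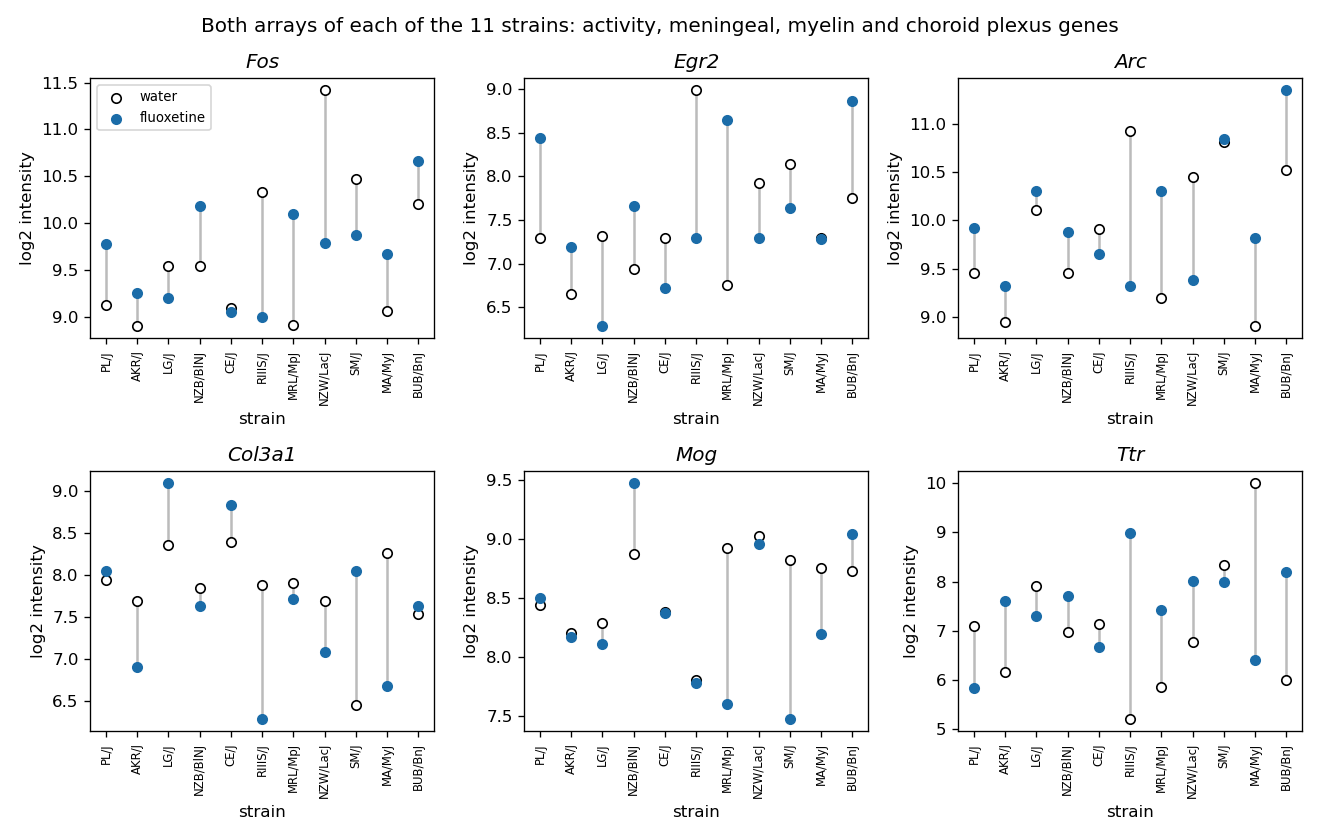
Open points are water and blue points fluoxetine arrays (log2 intensity, vertical axis) of each of the 11 strains, ordered by response size, for 3 activity genes (Fos, Egr2, Arc), a meningeal collagen (Col3a1), a myelin gene (Mog) and the choroid plexus gene Ttr. Lines join both arrays of a strain and point up in some strains and down in others, as for Ttr with 3.79 in RIIIS/J and -3.60 in MA/MyJ.

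The circadian clock list had 7 genes with a mean above 0 and 13 below, with a median of -0.01 (-0.0010 without SM/J, -0.0025 without BUB/BnJ and -0.0072 without CE/J). Ciart, a repressor of the clock activators, differed by -0.27 ± 0.19 and was lower in 9 of 11 strains, and Dbp, an output factor, differed by -0.15 ± 0.17 and was lower in 9. Other repressors were mixed. Per1 differed by -0.10 (lower in 7) and Nr1d2 by -0.05 (lower in 7). Per2 differed by 0.11 (higher in 8), though its dimmer probe sets differed by -0.05 and -0.0033. Bhlhe40 differed by 0.04 (higher in 8), and Per3 (-0.02), Cry1 (-0.01) and Cry2 (-0.0071) were near 0. Ciart ran from 7.78 to 9.16 on water (median 8.27) and from 7.52 to 8.76 with fluoxetine (median 8.18). MRL/MpJ (-0.52), BUB/BnJ (-0.45) and NZB/BlNJ (-0.44) were lowest, and RIIIS/J (0.02) and AKR/J (0.01) were level. Arntl and Clock, which encode the activators, were each higher in 9 of 11 strains (0.11 ± 0.11 and 0.07 ± 0.10). Nr1d1, which represses Arntl, differed by -0.19 ± 0.32, with -1.02 in BUB/BnJ. In the 3 strains set aside Ciart had a mean of -1.25 and Dbp of -0.93. In the 16 strains Ciart was at -0.32 and Dbp at -0.22 (limma adjusted p = 0.405 for each), and Arntl at 0.01 (limma adjusted p = 0.974).

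Heat shock genes had mostly higher means, by small amounts. Of 19 heat shock genes 17 had a mean above 0, with a median of 0.03 (0.06 without RIIIS/J and 0.05 without MA/MyJ), against 44.2% of all genes. Hspa1b, an inducible HSP70, was higher in 7 of 11 strains (0.21 ± 0.37), with 0.88 in MA/MyJ and 0.59 in MRL/MpJ. Hspa1a, Hspa4, Hspa4l and Stip1 were each higher in 9 strains, by 0.10, 0.06, 0.06 and 0.08. RIIIS/J was the lowest strain, with a list mean of -0.10. In the 16 strains 9 of 19 means were above 0. Of 20 genes of endoplasmic reticulum stress 13 had a mean above 0 (median 0.03; 0.01 without MRL/MpJ and 0.02 without PL/J or NZB/BlNJ), led by Pdia4; the 16 strains had 18 of 20.

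Genes of protein synthesis and respiration had small differences. All 15 ribosomal protein genes had a mean below 0 (median -0.03, but -0.01 without BUB/BnJ and -0.02 with all probe sets averaged), and 15 of 15 were above 0 in the 16 strains (median 0.02). After centring, 13 of the 15 were below 0. The list mean was below 0 in 7 of 11 strains, from -0.10 in BUB/BnJ to 0.04 in SM/J. Of 23 genes of oxidative phosphorylation 19 had a mean below 0 (median -0.02, or -0.01 without RIIIS/J or BUB/BnJ). In the 16 strains 15 of these 23 were above 0 (median 0.0035). Sdha, a subunit of complex II, was lower in 10 of 11 by a mean of -0.03 ± 0.03, and Ndufa4 in 10 by -0.04 ± 0.08.

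Transmitter genes showed single members that stood out. Sst, the peptide of a class of inhibitory neurons, was lower in 9 of 11 strains (-0.15 ± 0.12), from -0.35 in SM/J to 0.06 in NZW/LacJ. On water it ran from 11.95 to 12.79 and with fluoxetine from 11.85 to 12.62. In the 16 strains it was at -0.11 (limma adjusted p = 0.414). Gabra2, a GABA-A receptor subunit, was higher in 9 (0.11 ± 0.19) and Gad1, which makes GABA, in 8 (0.06 ± 0.11). Of 13 GABA genes 6 had a mean above 0, and of 16 glutamate genes 11 did. Hapln1, a link protein of perineuronal nets, was higher in 9 of 11 strains (0.19 ± 0.29), with MRL/MpJ at 0.63 and NZW/LacJ at -0.34; Ptprz1, a receptor for the net's tenascin, was higher in 9 (0.09 ± 0.14). Nefh, the heavy neurofilament chain, was higher in 9 (0.10 ± 0.15), and 7 of 10 cytoskeletal genes had a mean above 0.

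Other lists had means within the spread of the strains. Of 15 glucocorticoid-responsive genes 6 were above 0; Fkbp5, a cochaperone of the glucocorticoid receptor, differed by -0.01 ± 0.19 and Sgk1 by -0.07 ± 0.20. Of 8 iron genes 3 were above 0, and Tfrc, the transferrin receptor, differed by -0.08 ± 0.10 (lower in 7 of 11). Of 11 interferon and MHC class I genes 9 were below 0 (median -0.06), with BUB/BnJ lowest (-0.38). The median was -0.04 without NZW/LacJ, RIIIS/J or BUB/BnJ. In the 16 ancestry-group strains 7 of these 11 genes were above 0 (median 0.03). Of 11 microglial genes 9 were below 0 (median -0.06), against 1 of 11 in the 3 strains set aside, where the median was 0.40. In the 16 ancestry-group strains 8 of 11 microglial means were above 0 (median 0.03). Without BUB/BnJ the microglial median of the 11 strains was -0.02, and without NZW/LacJ -0.04. Of 11 astrocyte genes 7 were above 0, and of 25 lysosomal genes 9 were. Gnb4, a G protein subunit, was lower in 10 of 11 strains (-0.13 ± 0.12). Sh3d19 was lower in 8 (-0.11 ± 0.22; a dimmer probe set differed by 0.09) and Spata13 higher in 8 (0.24 ± 0.31). Zfp945 was lower in 10 (-0.22 ± 0.27), but RIIIS/J, CE/J and LG/J, which contributed its largest differences, lay between 2.07 and 3.51. Its other probe set nearest in level (6.50) differed by 0.07 and was higher in 9 strains.

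Single strains held large differences of single genes. At levels of at least 6 on both arrays, 89 genes differed by 2-fold in 1 of the 11 strains, 19 in 2 strains and 8 in more. The number per strain ran from 2 in LG/J to 45 in MA/MyJ. The share of genes that differed by 2-fold at any level was 0.185% in LG/J, 0.194% in NZB/BlNJ, 0.202% in AKR/J, 0.236% in PL/J and 0.311% in RIIIS/J. It was 0.362% in NZW/LacJ and 0.362% in CE/J, and 0.387% in MRL/MpJ. BUB/BnJ (0.555%), SM/J (0.681%) and MA/MyJ (0.934%) had the highest shares. Mettl14, a subunit of the RNA methyltransferase that writes N6-methyladenosine, was at 6.33 on water and 9.44 with fluoxetine in NZB/BlNJ. The other 20 arrays lay between 9.35 and 10.03, so the water array stood apart, and 1 probe set measured the gene. Exosc1, a subunit of the RNA exosome, was at 6.62 on water in NZW/LacJ and at 8.97 with fluoxetine, where the other strains lay between 8.86 and 9.55. Its other probe sets differed by 0.0020 and -0.28 in that strain.

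Usp39, a splicing factor, went from 7.48 to 9.89 in MRL/MpJ and from 9.53 to 7.89 in PL/J, while AKR/J was at 7.89 on both arrays and the other 8 strains lay above 10. A second probe set of Usp39 differed by 0.05 in MRL/MpJ and -0.12 in PL/J. Tnr, the tenascin of perineuronal nets, went from 6.13 to 9.00 in BUB/BnJ and from 7.89 to 5.90 in CE/J, while the other 9 strains lay between 9.29 and 10.49. Grm3, a metabotropic glutamate receptor singled out after its values were seen, went from 4.97 to 7.93 in RIIIS/J and lay between 11.92 and 12.83 in the other 10. Rbm45, an RNA-binding protein gene, was near 12 in 5 strains and between 6.61 and 8.31 in the other 6. In the latter it differed by 1.41 in SM/J, -1.29 in CE/J and -1.70 in MRL/MpJ.

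**Figure D5:**
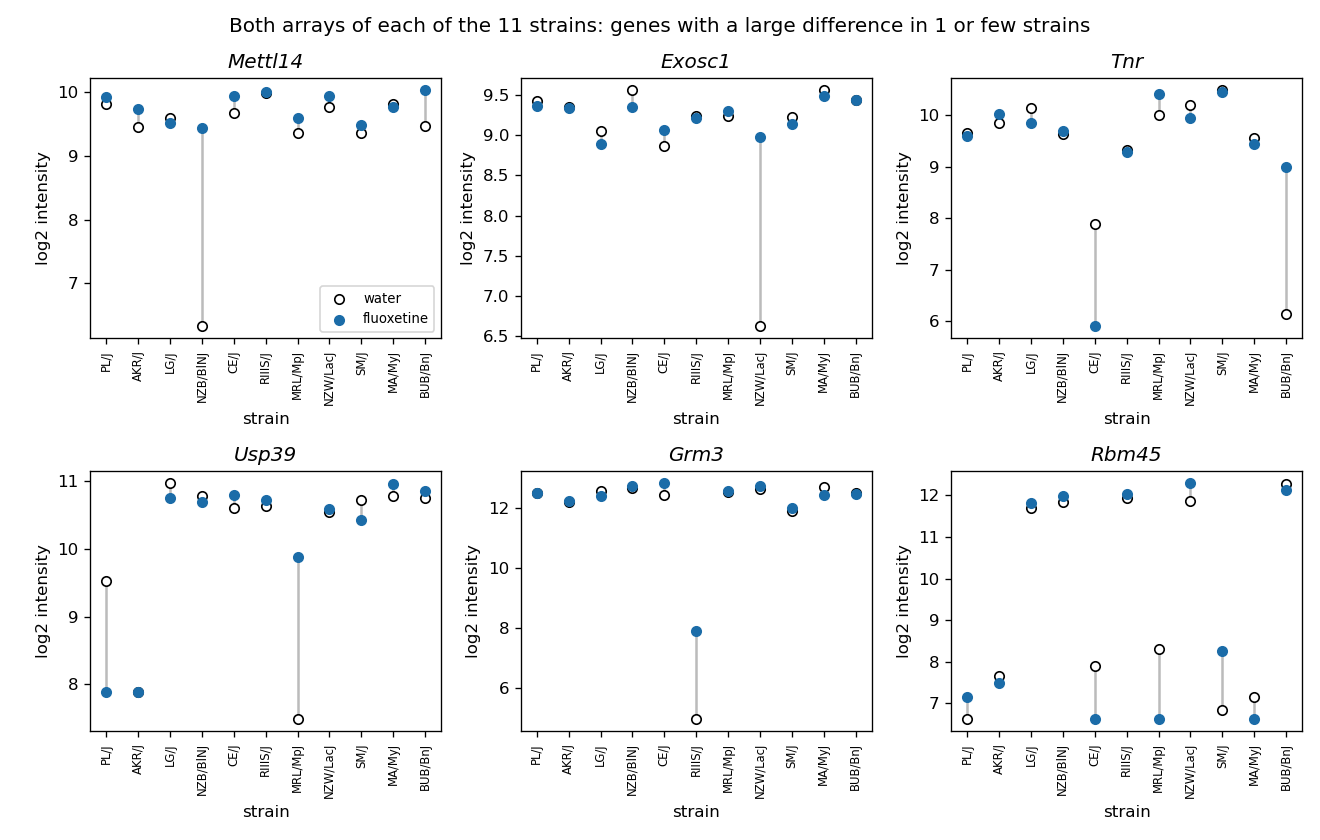
Water (open) and fluoxetine (blue) log2 intensity on the vertical axis in each of the 11 strains, ordered by response size, for Mettl14, Exosc1, Tnr, Usp39, Grm3 and Rbm45. For Mettl14 the NZB/BlNJ water array (6.33) stands apart while its fluoxetine array (9.44) lies among the others, and for Grm3 both RIIIS/J arrays (4.97 and 7.93) lie below the other strains.

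Other genes were named as the largest difference of a strain. Cd74, the invariant chain of MHC class II, went from 8.23 to 6.63 in BUB/BnJ and from 7.73 to 6.28 in AKR/J, and over the 11 strains it was higher in 5 and lower in 6. Gbp3, an interferon-induced GTPase, went from 8.34 to 6.73 in CE/J, and Ifitm1 from 7.82 to 6.77 in NZB/BlNJ. Serpina3n, a protease inhibitor of reactive astrocytes, went from 6.19 to 8.13 in MA/MyJ and from 6.45 to 7.57 in SM/J. Lmo3 differed by -1.42 in SM/J, Dcx, a marker of migrating neurons, by 1.12 in RIIIS/J, Fbln5 by 1.05 in CE/J and Mrc2 by 1.08 in LG/J. In NZW/LacJ the Y-linked demethylase gene Kdm5d, singled out after its values were seen, differed by -1.33, to 6.67 with fluoxetine, while the Y-linked Eif2s3y went from 10.36 to 10.11 and Uty from 6.78 to 6.58.

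Expression levels differed widely between strains. In a fit of all 60 arrays with treatment as a term, 8425 of 11886 genes (70.9%) differed in level among the 11 strains (limma F-test, Benjamini-Hochberg adjusted). Of the 10 largest F values, some belonged to genes with low water means over the 11 strains. These were Mir1931 (2.72), Baiap2l1 (2.74), Zfp874a (2.67) and Gdpd3 (3.67), while Sbsn lay at 6.95. Others belonged to genes near the floor in a single strain. Rpn1, a subunit of the oligosaccharyltransferase, had a strain mean of 2.92 in CE/J and a median of 12.59 (adjusted p = 3.39e-38). Slc8a1, a sodium-calcium exchanger, was at 2.77 in CE/J with a median of 11.08, and NZW/LacJ, RIIIS/J and MA/MyJ lay between 5.98 and 6.94 (adjusted p = 1.21e-36). Gabra3, a GABA-A receptor subunit, was at 2.15 in NZB/BlNJ with a median of 11.87 (adjusted p = 2.95e-35). Sfpq, a splicing factor, was at 4.46 in RIIIS/J with a median of 12.17, and Akap8l at 3.41 in NZB/BlNJ with a median of 10.12. A sequence variant under the probes and a lack of transcript give the same reading on these arrays and cannot be told apart here. Their differences by treatment were small: Rpn1 differed by -0.03 ± 0.12 and Gabra3 by 0.02 ± 0.15.

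Levels were most alike in MRL/MpJ and LG/J. The correlation of their level profiles across genes was 0.53, where the median of 55 pairs was -0.0078 and LG/J is known as a main ancestor of MRL/MpJ. The list means of activity genes differed between them, at 0.45 and -0.07, as did those of oligodendrocyte genes, at -0.87 and 0.01. Against the 16 ancestry-group strains, 0 genes (0.0%) differed in level at the threshold (limma on strain means, n = 11 and 16), with 1570 at an unadjusted p under 0.05. Ncbp3, a cap-binding protein, was nearest: 7.97 against 7.79 (difference 0.18, SE 0.0325, limma adjusted p = 0.0616).

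Tests on label-defined sets gave few calls. Over the 14 label-defined strains, which hold these 11, 0 genes (0.0%) passed limma's threshold with strain as a block, and 951 (8.0%) had an unadjusted p under 0.05. Over the 16 ancestry-group strains 1 gene passed (0.00841%), and 1028 (8.65%) had an unadjusted p under 0.05. That gene, 2810049E08Rik, fell by 0.33 (SE 0.0398, lower in 16 of 16 strains, limma adjusted p = 0.0021). In the 11 strains it was higher in 6 and lower in 5, with a mean of 0.04 ± 0.21, from -0.40 in SM/J to 0.37 in RIIIS/J. On water it ran from 7.33 to 8.09 and with fluoxetine from 7.15 to 8.02. Its response in the 14 strains was 0.03 (limma adjusted p = 0.918), and the difference from the 16 strains was not past the threshold (limma adjusted p = 0.221). The test of that difference called 0 genes (0.0%), with 327 (2.75%) at an unadjusted p under 0.05.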

How the data were processed

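The authors deposited 1 linear intensity per probe set and array; the submitters' processing notes name GCRMA, with no version. The values (4.21 to 72333.5) were taken to log2 without a pseudocount; between 28.5% and 30.1% of probe sets per array lay within 0.01 of the floor of 2.07. Of 45101 probe sets 34945 had 1 gene symbol, 932 several and 9160 none; a gene took its brightest probe set. GCRMA corrects background by probe sequence, and low values are compressed. Tests used limma 3.58.1 in R 4.3.3, two-sided, Benjamini-Hochberg over 11886 genes at 0.05. Strain was a block in the fits of the 14 and of the 16 strains. The contrast of these sets used within-strain differences, and levels against the 16 strains used strain means. The pairing comes from the strain label. On simulated shifts of 0.5, the fit of the 14 strains recovered 94% and that of the 16 strains 98%. At 0.25 each recovered 78%, and false calls numbered 11 and 16. The simulation gave every strain the same shift and the same spread, and drew noise independently for each gene. Measured response size was unequal, from 0.173 (PL/J) to 0.452 (P/J) within the 14 strains. Over these 14, Nptx2 differed by 0.75 and Inhba by 0.58, and neither was called (limma adjusted p = 0.609 for each). The recovered shares therefore need not hold for the measured data. Recovery of differences limited to some strains was not tested. The p-values measure spread between strains, pools and arrays together; the labels do not give batches or scan dates.

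The members and gene lists were chosen with earlier results of these data known. Genes were named by rule: the 10 largest means on each side among genes with 1 sign in 10 of 11 strains and log2 6 on all 22 arrays; the largest difference each way in each strain; up to 3 members per list with the most strains on 1 side; a fixed set; genes past a threshold; the 10 largest F values; and the 8 widest spreads. Others named serve to describe a list or were chosen after their values were seen. Alternatives were all probe sets averaged, other filters, centring, no block, array weights, ancestry as a random block, water arrays alone for levels, the median absolute difference for response size, and leaving out each strain.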

Additional observations from a re-analysis of the deposited data

How the results depend on the processing

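Response size and the level differences among the 11 strains kept their direction and size under other filters, averaged probe sets and centring. Under these settings 7960 to 8799 genes differed in level. The total of genes with 1 sign in 10 of 11 strains was 103 to 122. Its split into higher and lower genes moved with centring, as given above. Leaving out 1 of the 11 strains gave 169 to 273 genes with 1 sign in all but 1 strain, a rule that is looser by construction. In the 16 strains the count of 1 became 2 with averaged probe sets, 2 with centring and 2 with array weights, and 0 without the replicate block by strain (no replicate block). Without any strain it stayed at 1. In the 14 strains it was 0 with and without that pairing and whichever strain was left out. The test of the difference between both sets called 0 to 1 genes, with 1 when SM/J or DBA/2J was left out. Level against the 16 strains called 1 gene without a filter; the cause was not tested. Direction of the list median changed sign with a single strain left out for activity genes (-0.03 without MRL/MpJ, 0.04 without RIIIS/J) and for lists with medians near 0, while that of cholesterol synthesis ran from -0.10 to -0.08. With 1 pool per strain and treatment, a difference in 1 strain cannot be separated from pool, dissection or array.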
